A study of Drosophila melanogaster with 12 samples.

Results

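The 7 genes described here encode the PS integrins of the wing and the proteins that tie them to the cell skeleton: *mys*, *mew*, *if*, *rhea*, *Ilk*, *stck* and *by*. They were chosen by name, as the rows of the count tables with those symbols, and each symbol matched 1 of 15240 genes. RNA was sequenced with a stranded mRNA kit from manually dissected *Drosophila melanogaster* wings of the strain labelled w1118/y,w, hs-FLP; + ; +, with no other genotype or treatment in the series. The groups were L3 (wandering larvae of the last instar) and 6, 18, 24, 36 and 44 h after puparium formation (APF), each with 2 libraries, 12 in all. The L3 libraries are titled 0 h APF while their stage label says wandering larvae. RNA came from 40 wings for each stage and the replicates are described as independent, so each value is an average over many wings and over both surfaces, veins and intervein cells.

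Integrins are receptors of 1 alpha and 1 beta subunit that span the cell membrane, bind the extracellular matrix outside and recruit a set of linker proteins to actin inside. In the fly wing they hold the dorsal and the ventral epithelium together at their basal sides, through a matrix that lies between them. The surfaces are joined in the prepupa, part early in the pupal period and join again later, and clones of cells without an integrin or one of its linkers leave a blister where the surfaces fail to hold. Several of the genes, such as *inflated* (*if*) and *blistery* (*by*), were named for the wings of their mutants.

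Reads on genes numbered 1659208 in the shallowest library and 6900002 in the deepest (median 4587594.5), and a floor of 3 counts was worth 0.363 to 1.53 CPM (read counts scaled to the size of the library with TMM factors). Replicates were least alike at 6 h APF, with a Spearman correlation across genes of 0.949 (0.972 to 0.991 elsewhere) and a biological coefficient of variation of 35.7% (11.4 to 21.2% elsewhere). The 6 wing markers (*vg*, *nub*, *sd*, *ap*, *rn* and *Dll*) were above the floor in every library, and their summed level was 1512 and 1211 CPM in L3 wings, 920.3 and 962 in 6 h wings, 1909.9 and 1945 in 18 h wings, 2048 and 1793 in 24 h wings, 1051 and 1194 in 36 h wings, and 756 and 763 in 44 h wings. The sum was thus lowest at 6 h, 36 h and 44 h, the timepoints at which most of the 7 genes were highest. *sd*, the largest part of it, and *ap* were lower at those timepoints than at the others. The markers did not all move together. *rn* was highest at 6 h (mean of 74.4 CPM) and *Dll* at 36 h (108 CPM), and *nub* had 157 CPM at 36 h and 118 CPM at L3. The part of the wing markers in the values of the 7 genes was not tested. Markers of other tissues were present as well. In RNA from whole wings, fewer cells of a type and less RNA per cell cannot be told apart.

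All 7 genes passed the filter on low counts (log2 CPM over 2 in 1 library or more), which left 8469 genes to test. Each of them varied over the 6 timepoints by more than its replicates did (edgeR's quasi-likelihood F test with Benjamini-Hochberg adjustment, adjusted p between 1.77e-08 for *by* and 2.89e-05 for *mys*), as did 83.5% of all genes tested. In what follows a gene rose or fell between timepoints if its adjusted p was under 0.05 and its fitted change at least 2-fold. The 7 genes shared a rise at 36 h APF, 5 of them had also risen at 6 h over L3, and they parted at 44 h APF, where *if* and *rhea* fell and the rest did not pass the test. The plot of levels in each library shows this course gene by gene.

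**Figure D1:**
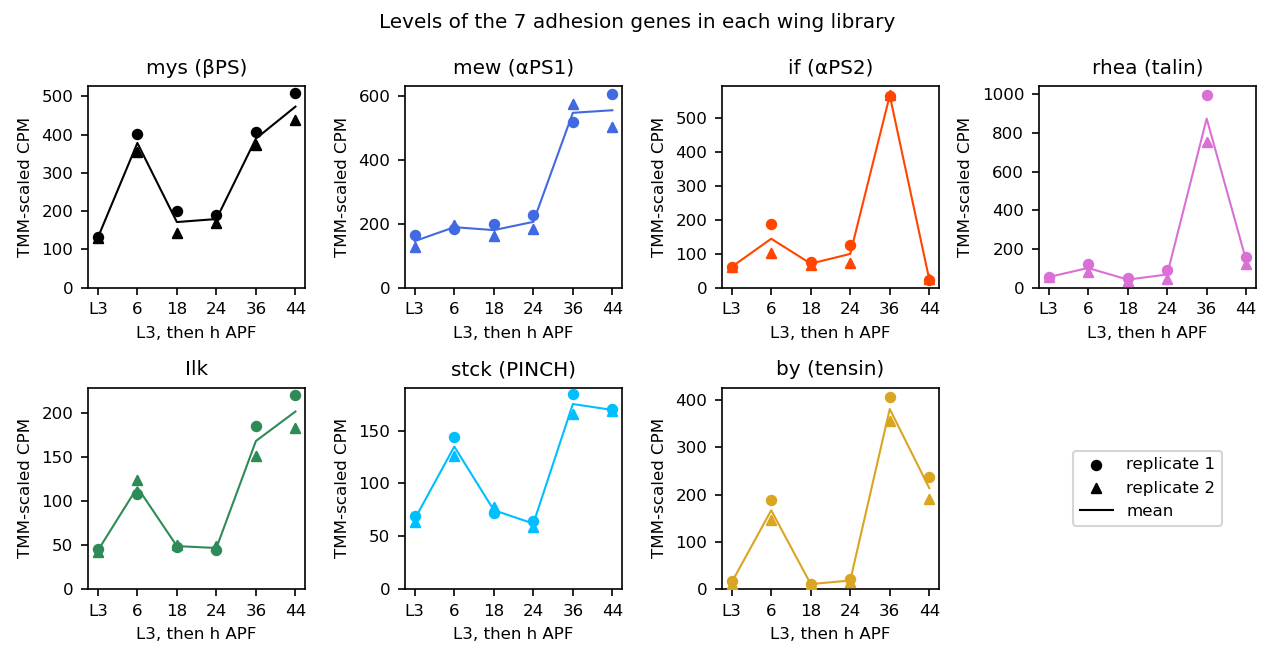
Level of each gene in TMM-scaled CPM (linear axes from 0, scales differ between panels) against timepoint, with a point for each of the 12 libraries and a line through the means of the 2 replicates. In *mys*, *Ilk*, *stck* and *by* there are peaks at 6 h APF and at 36 to 44 h APF, *if* and *rhea* have a sharp peak at 36 h APF, and *mew* is level until 24 h APF.

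The beta subunit pairs with both alpha subunits. *mys* (betaPS, FBgn0004657, X chromosome, plus strand) had 131 and 130.1 CPM in L3 wings, 403 and 353 in 6 h wings, 199.7 and 143 in 18 h wings, 189 and 169 in 24 h wings, 407 and 372 in 36 h wings, and 508 and 438 in 44 h wings. The libraries fall into a low set (L3, 18 h and 24 h) and a high set (6 h, 36 h and 44 h) that do not overlap. *mys* rose 2.89-fold at 6 h over L3 (log2 fold change 1.53 ± 0.22 SE, adjusted p = 0.000157), fell 2.20-fold at 18 h against 6 h (adjusted p = 0.00118) and rose 2.17-fold at 36 h over 24 h (adjusted p = 0.00191). At 36 h against 6 h its log2 difference was 0.04 ± 0.21 (SE, adjusted p = 0.891), and at 44 h against 36 h the log2 difference was 0.28 (adjusted p = 0.35).

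The alpha subunits did not follow the beta subunit closely. *mew* (alphaPS1, FBgn0004456, X, minus strand), which in the larval disc is known as the alpha subunit of the dorsal side, had 163 and 128 CPM in L3 wings, 183 and 195 in 6 h wings, 198 and 162 in 18 h wings, 227 and 185 in 24 h wings, 519 and 576 in 36 h wings, and 608 and 504 in 44 h wings. There was 1 step, between 24 h and 36 h, and the libraries on either side of it do not overlap. *mew* rose 2.65-fold at 36 h over 24 h (log2 fold change 1.41 ± 0.22 SE, adjusted p = 0.000489) and passed the test in no other pair of consecutive timepoints. At 6 h over L3, when *mys* rose, its log2 fold change was 0.37 ± 0.22 (SE, adjusted p = 0.184). *mew* overlaps *CG15742* and *CG32639* on the same strand in the BDGP6 annotation, and *CG32639* had 1.3 to 11.8 CPM.

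*if* (alphaPS2, FBgn0001250, X, minus strand), known as the alpha subunit of the ventral side of the disc, had 61.7 and 60.5 CPM in L3 wings, 187 and 101 in 6 h wings, 75.1 and 66.0 in 18 h wings, 126 and 72.9 in 24 h wings, 566 and 567 in 36 h wings, and 20.9 and 26.7 in 44 h wings. The 36 h libraries lie above and the 44 h libraries below every other library, and the replicates are farthest apart at 6 h and 24 h. *if* rose 5.63-fold at 36 h over 24 h (log2 fold change 2.49 ± 0.32 SE, adjusted p = 0.000105). It then fell 23.7-fold at 44 h against 36 h (log2 fold change −4.57 ± 0.35 SE, adjusted p = 2.85e-06), to 88 and 132 counts in the 44 h libraries against 1923 and 2042 counts in the 36 h libraries. It was the one gene of the 7 that ended the series lower than it began it, by 2.56-fold at 44 h against L3 (adjusted p = 0.00305), while the other 6 were 2.55-fold to 14.6-fold higher.

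Talin, the product of *rhea*, binds the tail of the beta subunit and links it to actin. *rhea* (FBgn0260442, 3L, plus strand) had 53.5 and 55.4 CPM in L3 wings, 119.6 and 82.9 in 6 h wings, 48.1 and 34.4 in 18 h wings, 88.9 and 46.4 in 24 h wings, 994 and 753 in 36 h wings, and 157 and 123 in 44 h wings. The 36 h libraries stand far above the rest, and the 44 h libraries are next. *rhea* rose 12.7-fold at 36 h over 24 h (log2 fold change 3.66 ± 0.34 SE, adjusted p = 1.01e-05) and fell 6.23-fold at 44 h against 36 h (log2 fold change −2.64 ± 0.32 SE, adjusted p = 9.0e-05). It also fell 2.44-fold at 18 h against 6 h (adjusted p = 0.00651), whereas at 6 h over L3 its log2 fold change of 0.90 (adjusted p = 0.0362) was under 2-fold. *CG6638* overlaps it on the opposite strand, and whether reads were counted by strand is not given in the sources used here. *CG6638* itself had 5.59 and 8.88 CPM at 36 h.

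Integrin-linked kinase and PINCH sit with parvin in one complex on the cytoplasmic side. *Ilk* (FBgn0028427, 3L, plus strand) had 45.2 and 42.5 CPM in L3 wings, 108 and 124 in 6 h wings, 47.9 and 49.8 in 18 h wings, 44.6 and 48.9 in 24 h wings, 185 and 152 in 36 h wings, and 220.4 and 184 in 44 h wings. *stck* (PINCH, FBgn0020249, 3R, plus strand) had 69.0 and 63.6 CPM in L3 wings, 144 and 126 in 6 h wings, 71.8 and 77.5 in 18 h wings, 64.8 and 59.1 in 24 h wings, 184 and 166 in 36 h wings, and 171 and 168 in 44 h wings. In both genes the 6 h, 36 h and 44 h libraries lie above all others, and the replicates are close together. *Ilk* rose 2.63-fold and *stck* 2.03-fold at 6 h over L3 (adjusted p = 0.000137 and 0.000673). At 18 h against 6 h *Ilk* fell 2.37-fold (adjusted p = 0.00031), and *stck* was 1.81-fold lower (adjusted p = 0.00216), short of 2-fold. The rises at 36 h over 24 h were 3.62-fold for *Ilk* and 2.82-fold for *stck* (adjusted p = 2.84e-05 and 7.2e-05). *stck* overlaps *CG9684* (*Veneno* in the annotation) on the opposite strand, which had 22.1 to 56.2 CPM, highest in a 24 h library.

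*by* encodes tensin, which binds integrin tails and actin and was named for the blisters of its mutants. It (FBgn0000244, 3R, minus strand) had 17.2 and 11.3 CPM in L3 wings, 188 and 145 in 6 h wings, 10.8 and 10.4 in 18 h wings, 20.5 and 15.8 in 24 h wings, 407 and 356 in 36 h wings, and 237 and 191 in 44 h wings. The timepoint means ranged more widely than those of the other 6 genes, and the low libraries (L3, 18 h and 24 h) are far from the high ones (6 h, 36 h and 44 h). *by* rose 11.4-fold at 6 h over L3 (log2 fold change 3.51 ± 0.26 SE, adjusted p = 1.19e-06), fell 15.7-fold at 18 h against 6 h (log2 fold change −3.97 ± 0.27 SE, adjusted p = 5.66e-07) and rose 20.5-fold at 36 h over 24 h (log2 fold change 4.36 ± 0.27 SE, adjusted p = 7.75e-07). At 44 h against 36 h it was 1.78-fold lower (adjusted p = 0.0188), short of 2-fold.

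Set side by side, the 5 steps between consecutive timepoints differed in how many of the 7 genes took part. At 6 h over L3, 5 rose (*mys*, *if*, *Ilk*, *stck* and *by*) and none fell, against 18.1% of all tested genes that rose and 14.7% that fell. The median log2 fold change of the 7 was 1.24, and 0.01 over all genes. At 18 h against 6 h, 5 fell (*mys*, *if*, *rhea*, *Ilk* and *by*) and none rose, where 17.8% of all genes fell and 14.3% rose, with a median of −1.14 for the 7 and 0.00 for all genes. The summed level of 5 fat body markers was 135 and 567 CPM at 6 h, with none at 0 counts, against 4.36 and 4.72 CPM at L3, where *Lsp1alpha* was at 0 in the second library, and it was 147 and 88.7 CPM at 18 h. The sum of 7 hemocyte markers was 110.2 and 122 CPM at 6 h, with *eater* at 0 in the second library, against 62.3 and 62.4 CPM at L3, and it was 49.6 and 39.5 CPM at 18 h, with *He* at 0 in the second library. The hemocyte markers did not move together. *Hml*, *eater* and *He* were lower at 6 h (means of 4.17, 0.229 and 0.285 CPM) than at L3 (12.5, 3.42 and 3.43 CPM). *crq* (72.5 CPM at 6 h and 26.5 CPM at L3), *nimC1*, *srp* and *Pxn* were higher. The sum of 4 myoblast markers, with none at 0, was 187 and 108 CPM at 6 h, against 85.2 and 82.5 CPM at L3, and it was 107 and 99.1 CPM at 18 h. *Mef2* was the largest part of it, with means of 31.6, 68.5 and 87.5 CPM at L3, 6 h and 18 h. In the same order *twi* had 17.3, 18.1 and 2.03 CPM, *Him* 14.8, 35.0 and 7.72 CPM, and *zfh1* 20.2, 26.1 and 5.85 CPM. The part of these tissues in the 6 h values was not tested. Between the 6 h libraries 14.8% of all genes tested differed 2-fold and none of the 7 did, with *if* at 187 and 101 CPM. Without the first 6 h library the counts were 3 at 6 h over L3 and 3 at 18 h against 6 h, and without the second 18 h library the count at 18 h against 6 h was 2. Without that 6 h library *if* had log2 fold changes of 0.72 at 6 h over L3 and −0.51 at 18 h against 6 h, with neither past the test. Each step shares libraries with the next, so a rise into a timepoint and a fall out of it are not independent.

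At 24 h against 18 h none of the 7 passed the test, with 8.81% of all genes past it. With edgeR's quasi-likelihood test none of the 7 reached an adjusted p under 0.05 at any size, which 12.4% of all genes did, and the adjusted p ranged from 0.0758 for *by* to 0.883 for *mys*. An unadjusted p under 0.05 was found in 2 of the 7, and DESeq2 on the counts and limma on the RPKM values also put 0 past the test. The replicate libraries of 18 h and 24 h did not overlap in 2 of the 7 genes, where 55.9% of all genes had libraries that did not overlap.

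At 36 h over 24 h all 7 rose, against 15.3% of all genes, with log2 fold changes from 1.12 (*mys*) to 4.36 (*by*) and a median of 1.85, where the median over all genes was −0.04. The 36 h libraries were above the 24 h libraries in 7 of 7 genes, where 68.2% of all genes had libraries that did not overlap. All 7 also rose at 36 h over 18 h, against 21.3% of all genes, from 2.27-fold in *mys* to 21.0-fold in *rhea* and 35.8-fold in *by*. With library size alone in place of TMM factors 5 of the 7 rose at 36 h over 18 h (log2 fold changes of 0.73 for *mys* and 0.78 for *stck*), and in the deposited RPKM values 3 did, with −0.022 for *mys*, 0.0044 for *stck*, 0.38 for *mew* and 0.55 for *Ilk*. The summed level of 8 muscle markers was 159 and 268 CPM at 36 h, with none at 0, against 35.9 and 42.8 CPM at 24 h, where *Mf* and *TpnC41C* were at 0 in the second library. At 18 h it was 98.7 and 121 CPM. At 44 h the muscle sum was 573 and 2356 CPM. Its part in the values of the 7 genes was not tested.

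At 44 h against 36 h, 2 of the 7 fell, *if* and *rhea*, and none rose, with 9.38% of all genes lower and 10.5% higher. Of the other 5, *mys*, *mew*, *Ilk* and *stck* had log2 fold changes of −0.05 to 0.28 (adjusted p = 0.319 to 0.954), with standard errors of 0.17 to 0.22. In each 44 h library *if* and *rhea* were below both 36 h libraries. The summed level of the muscle markers was 573 and 2356 CPM in the 44 h libraries, and its part in this step was not tested. Across the gap that spans the parting of the surfaces, at 24 h against 6 h, 4 genes fell (*mys* 2.11-fold, *Ilk* 2.48-fold, *stck* 2.17-fold and *by* 8.98-fold), against 15.7% of all genes, while *mew*, *if* and *rhea* had adjusted p-values of 0.188 to 0.693. At 44 h against L3, 6 rose and 1 (*if*) fell, where 26.9% of all genes rose and 21.5% fell. In that comparison 4 of the 7 passed the test with library size alone and 5 in the deposited RPKM values.

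**Figure D2:**
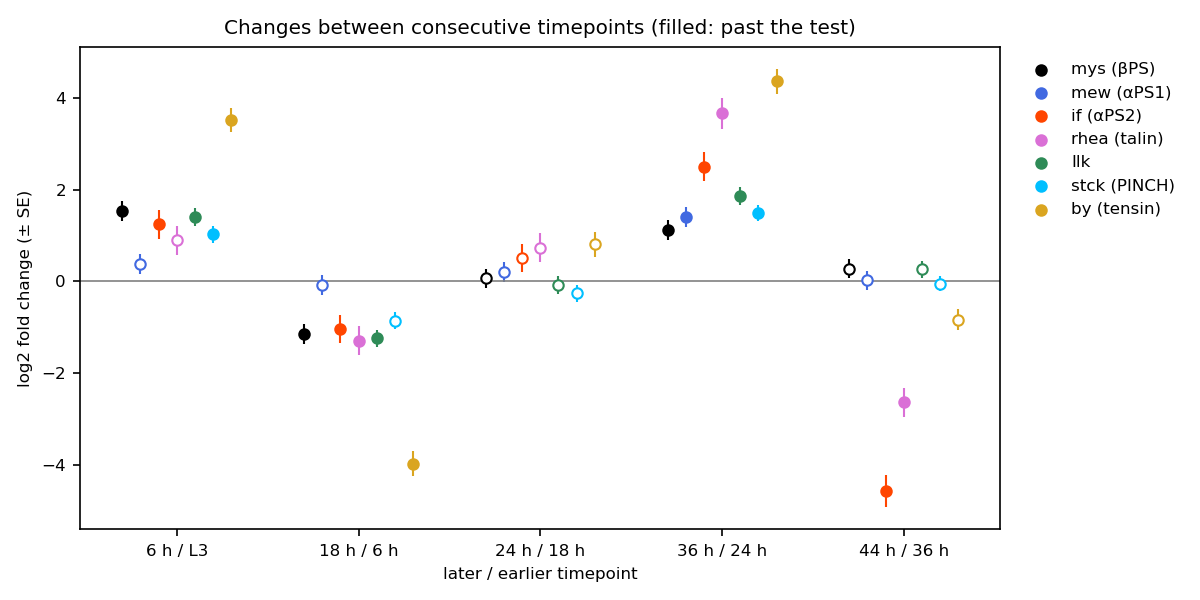
Log2 fold change with its SE for each of the 7 genes in the 5 consecutive comparisons, later over earlier timepoint, with filled points where the adjusted p was under 0.05 and the change at least 2-fold. At 36 h over 24 h all 7 points are filled and above 0, at 24 h over 18 h none is filled, and at 44 h over 36 h *if* (−4.57) and *rhea* (−2.64) lie apart from the rest.

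These counts depend on how the libraries were scaled. With library size alone in place of TMM factors the median log2 fold change of all genes was −0.54 at 6 h over L3 and 0.51 at 18 h against 6 h. In each of these comparisons 1 of the 7 genes passed the test. In the step to 36 h the median was −0.44 (−0.04 with TMM) and 6 of the 7 passed. The deposited RPKM values, whose library sizes include records not assigned to a gene, were tested with limma. At 36 h over 24 h their median was −0.69 and 3 of the 7 passed. Relative to that median the log2 fold changes of the 7 ran from 0.98 (*mys*) to 4.07 (*by*). Comparisons within a library do not involve the scaling.

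The subunits were therefore also compared within each library, per kilobase of exons in the BDGP6 annotation. The ratio of *if* to *mew*, the ventral to the dorsal alpha subunit, was 0.327 and 0.408 in L3 wings, 0.884 and 0.447 in 6 h wings, 0.328 and 0.353 in 18 h wings, 0.48 and 0.341 in 24 h wings, 0.943 and 0.852 in 36 h wings, and 0.0297 and 0.0459 in 44 h wings. On the mean the transcripts were closest to equal at 36 h and farthest from it at 44 h. The 44 h libraries lie far below all the others, and the first 6 h library overlaps those of 36 h. The log2 ratio was −4.76 ± 0.44 at 44 h and −0.16 ± 0.10 at 36 h (SD, n = 2 each), and libraries of a timepoint were more alike than under other pairings of the 12 libraries (exact permutation test over 10395 pairings, one-sided, p = 0.0077, adjusted p = 0.0109 over 3 ratios).

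The sum of *mew* and *if*, the alpha subunits among the 7 genes, was also set over *mys*. The ratio was 1.42 and 1.2 in L3 wings, 0.738 and 0.689 in 6 h wings, 1.13 and 1.32 in 18 h wings, 1.53 and 1.26 in 24 h wings, 2.13 and 2.47 in 36 h wings, and 1.06 and 1.04 in 44 h wings. The ratio was below 1 at 6 h and above 2 at 36 h, and neither timepoint overlaps any other. Libraries of a timepoint were more alike than under other pairings (exact permutation test, one-sided, p = 0.00221, adjusted p = 0.00664 over 3 ratios). The ratio leaves out *scb*, another alpha subunit, which had 25.2 CPM per kilobase at 6 h, where *if* had 24.0, and 5.07 at 36 h, so it is not a balance of all alpha against beta transcripts.

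The ratio of *stck* to *Ilk*, whose products are partners in one complex, moved least. It was 2.14 and 2.1 in L3 wings, 1.87 and 1.43 in 6 h wings, 2.1 and 2.18 in 18 h wings, 2.04 and 1.69 in 24 h wings, 1.4 and 1.53 in 36 h wings, and 1.09 and 1.28 in 44 h wings. It was highest at L3 and 18 h and lowest at 44 h. Libraries of a timepoint were more alike than under other pairings (exact permutation test, one-sided, p = 0.0109, adjusted p = 0.0109 over 3 ratios). The order of timepoints was not tested. Its timepoint means spanned 0.86 on the log2 scale, against 1.69 for *mew* and *if* over *mys* and 4.60 for *if* over *mew*.

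**Figure D3:**
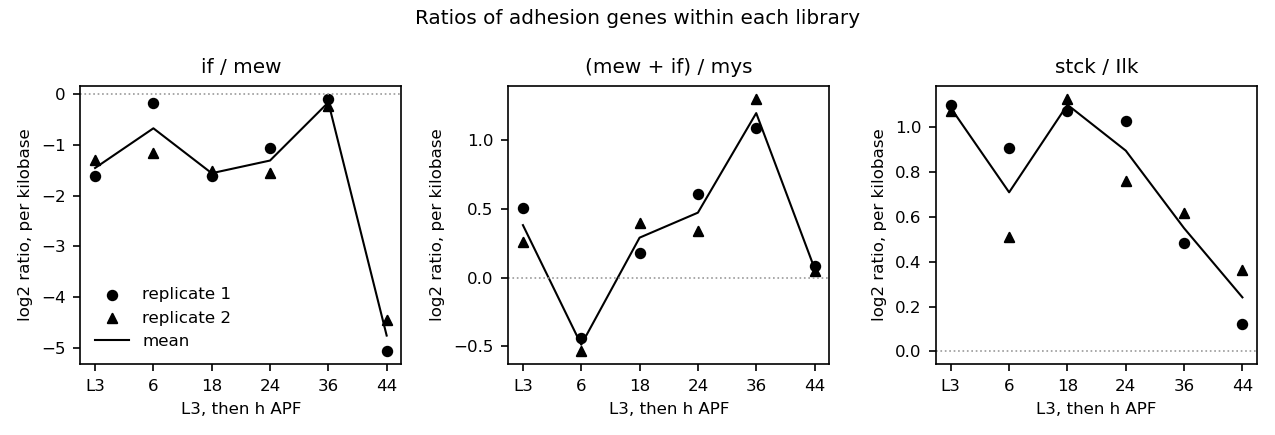
Log2 ratios per kilobase within each library for *if* over *mew*, the sum of *mew* and *if* over *mys*, and *stck* over *Ilk*, with a point per library and a line through the timepoint means. The low *if* over *mew* at 44 h (mean −4.76) and the high sum of *mew* and *if* over *mys* at 36 h (linear ratios 2.13 and 2.47) stand out from the other timepoints.

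Levels per kilobase also let the 7 genes be set against each other. At 36 h the 7 means lay between 75.9 CPM per kilobase for *Ilk* and 111 for *stck*, a 1.46-fold range, and the range was 1.40-fold and 1.63-fold in the individual libraries. At every other timepoint the range of the means was far wider: 14.0-fold in L3 wings, 9.32-fold in 6 h wings, 21.3-fold in 18 h wings, 10.5-fold in 24 h wings and 27.0-fold in 44 h wings. *by* was lowest at L3, 18 h and 24 h with under 4 CPM per kilobase, *rhea* at 6 h with 9.14 and *if* at 44 h with 3.96. *stck* was highest in both libraries of L3, 6 h and 18 h, closely followed at 6 h by *mys* (means of 85.2 and 84.4), and at the later timepoints the highest gene differed between the replicates. Exon lengths were summed over all transcripts of a gene, so a gene that uses short transcripts in the wing is understated.

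**Figure D4:**
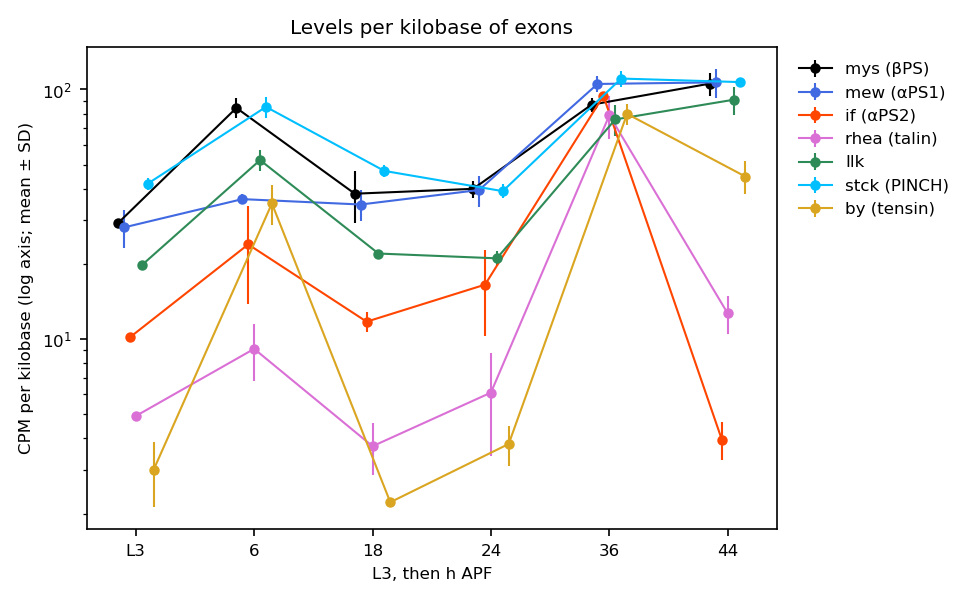
Level of each gene per kilobase of exons (log axis, mean of 2 libraries with SD) against timepoint. The 7 genes converge at 36 h APF between 75.9 and 111 CPM per kilobase and are spread over 9.32-fold to 27.0-fold at the other timepoints.

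The order of the 6 timepoints differed among the genes, and most neighbours in it could not be told apart. Of 35 pairs of neighbouring levels, 5 for each gene, 10 differed with an adjusted p under 0.05. Neighbours in an order of means are the closest levels by construction. No count over all genes was made, so the number says nothing particular to the 7. For *mys* the gap lay between 6 h and 24 h, for *mew* between 36 h and 24 h, and for *stck* between 6 h and 18 h. *if* had a gap below 36 h and another above 44 h, its lowest point. *rhea* had a gap below 36 h, *Ilk* had gaps on either side of 6 h, and *by* had them between 36 h and 44 h and between 6 h and 24 h. Among L3, 18 h and 24 h, none of the 7 genes had an adjusted p under 0.05 in any of the 3 pairs of timepoints. At 24 h against 18 h 12.4% of all genes did, and for the pairs with L3 no share of all genes is given. With edgeR's quasi-likelihood test the unadjusted p at 24 h against L3 was 0.042 for *mew* and 0.038 for *if*. It was 0.055 to 0.677 for the others.

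Across the 12 libraries, log2 CPM of the 6 genes other than *if* moved in parallel, with Pearson r of 0.691 to 0.977 in their 15 pairs, highest for *Ilk* with *stck*. The 6 pairs that include *if* had r of 0.145 to 0.679, highest with *rhea*. These are descriptions over 12 libraries that share their scaling, and replicates share a timepoint. Among all tested genes, those most like *Ilk* were *Fit2* (kindlin, which binds the tail of the beta subunit; r = 0.988), *CG31637* (0.987) and *CG17264* (0.985), and those most like *stck* were *Spec2* (0.982), *Fit2* and *Ilk* (0.977 each). The nearest to *mys* were *hebe*, *Tie* and *CG33978* (0.986 to 0.988), and to *mew* *CG34353*, *CG4462* and *CG18519* (0.982 to 0.983). *CG34353* and *CG4462* had means of at most 0.835 CPM up to 24 h and of at most 9.74 CPM later. With library size alone none of the 3 was still among the nearest to *mew*. Among the nearest to *if* were *CG42671* and *aop* (0.940 each). *rhea* was nearest to *mAcR-60C* (0.971), the laminin gamma chain gene *LanB2* (0.968) and *dsd* (0.966), and *by* to *CG13737* (0.984), *CG42788* (0.982) and *dy* (0.980).

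The fly has other integrin subunits, and 1 of the 4 was well above the floor of 3 counts in every library. *scb* (alphaPS3) had 20.6 and 26.1 CPM in L3 wings, 147 and 105 in 6 h wings, 27.2 and 24.6 in 18 h wings, 20.6 and 21.9 in 24 h wings, 24.4 and 26.4 in 36 h wings, and 60.0 and 67.8 in 44 h wings. The 6 h libraries were highest and the 36 h libraries stayed among the low ones. *scb* rose 5.46-fold at 6 h over L3 (adjusted p = 4.86e-06), fell 4.85-fold at 18 h against 6 h (adjusted p = 7.23e-06) and rose 2.52-fold at 44 h over 36 h (adjusted p = 0.000785). At 36 h over 24 h, where all 7 genes above rose, its log2 fold change was 0.26 (adjusted p = 0.393). *alphaPS4* had 1 to 14 counts per library and *alphaPS5* 0 to 34, and *betaInt-nu*, the other beta subunit, had 0 to 5 counts, with 0 in all 4 libraries of 36 h and 44 h. Of these 3, *alphaPS5* passed the filter on low counts, with an adjusted p of 0.204 in the F test over the series, and for the others no change was detectable at this depth.

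Outside the cell, 7 genes encode matrix ligands of the PS integrins, laminin chains, tiggrin, thrombospondin and tenectin. At 6 h over L3 1 rose (18.1% of all genes), *wb*, a laminin alpha chain (9.23-fold, with 564 ± 137 CPM at 6 h and 61.0 ± 5.6 CPM at L3, SD, n = 2 each). At 18 h against 6 h 5 fell and 1 rose (17.8% and 14.3% of all genes): *LanA* fell 5.34-fold, *wb* 3.35-fold, *Tsp* 2.25-fold and *LanB2* 2.22-fold, and *Tig* was at 1 and 0 counts at 18 h, against 10 counts in each 6 h library. The gene that rose was *tnc* (tenectin), with 2933 and 1935 CPM at 18 h, against 40.1 and 65.6 CPM at 6 h (46.3-fold, adjusted p = 1.22e-06). *tnc* was thus highest at the timepoint with the lowest means of *rhea* and *by*.

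At 24 h against 18 h *wb* rose 2.38-fold and *tnc* fell 2.54-fold, where 8.81% of all genes passed the test in either direction. The ligand genes that rose at 36 h over 24 h were 2 (15.3% of all genes), *Tsp* (thrombospondin), with 379.8 and 359 CPM at 36 h, against 43.4 and 26.0 CPM at 24 h (10.3-fold), and *LanB2* (3.51-fold). At 44 h against 36 h 3 fell, *tnc* 6.38-fold, *Tsp* 3.35-fold and *wb* 2.83-fold, and none rose (9.38% of all genes fell and 10.5% rose). The median log2 fold change of the 7 ligand genes was −0.40, −1.17, 0.71, 0.58 and −0.997 over the 5 steps in time order, and between −0.04 and 0.08 over all genes.

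Inside the cell, 20 further genes of integrin adhesions were examined. At 6 h over L3 6 of the 20 rose and none fell (18.1% and 14.7% of all genes), led by *Fit2* (9.15-fold), *CAP* (an adaptor that binds vinculin, 5.23-fold) and *ics* (the RSU1 protein that binds PINCH, 4.76-fold). At 18 h against 6 h 7 fell and none rose (17.8% and 14.3% of all genes), led by *Fit2* (6.08-fold), *Zasp52* (4.58-fold) and *ics* (3.88-fold). At 24 h against 18 h none passed the test with edgeR (8.81% of all genes did), 1 had an adjusted p under 0.05 and 4 an unadjusted p under 0.05. In the step to 36 h 6 rose (15.3% of all genes) and none fell, led by *Fit2* (10.1-fold), *Actn* (alpha-actinin, 9.41-fold) and *parvin*, the partner of ILK and PINCH (4.10-fold).

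*parvin* had 35.6 and 34.0 CPM in L3 wings, 128 and 135 in 6 h wings, 38.1 and 31.9 in 18 h wings, 30.8 and 30.6 in 24 h wings, 129 and 123 in 36 h wings, and 144 and 128 in 44 h wings. This is the course of *Ilk* and *stck*, with the low and the high libraries apart, although *Alr* overlaps it on the same strand. *Fit2* had 13.2 and 15.1 CPM in L3 wings, 115 and 142 in 6 h wings, 22.2 and 19.9 in 18 h wings, 16.1 and 15.8 in 24 h wings, 175 and 149 in 36 h wings, and 270.5 and 245 in 44 h wings. Its low timepoints were those of *by*, and its 44 h libraries were above its 36 h libraries.

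At 44 h against 36 h 3 of the 20 rose and 2 fell (10.5% and 9.38% of all genes). *CAP* had 638 and 596 CPM at 44 h, against 15.9 and 13.6 CPM at 36 h (41.8-fold, adjusted p = 2.22e-06), and *Zasp52* and *Src42A* rose 2.55-fold and 2.15-fold. *Vinc* (vinculin, which binds talin) fell 3.77-fold and *Actn* 2.51-fold, in the step where *if* and *rhea* fell. The median log2 fold change of the 20 genes was 0.67, −0.64, −0.05, 0.23 and 0.24 over the 5 steps in time order, smaller in size than that of the 7 genes at each step up to 36 h. *Zasp52*, *Actn* and *CAP* are also known from muscle, and the muscle markers had the levels given above.

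**Figure D5:**
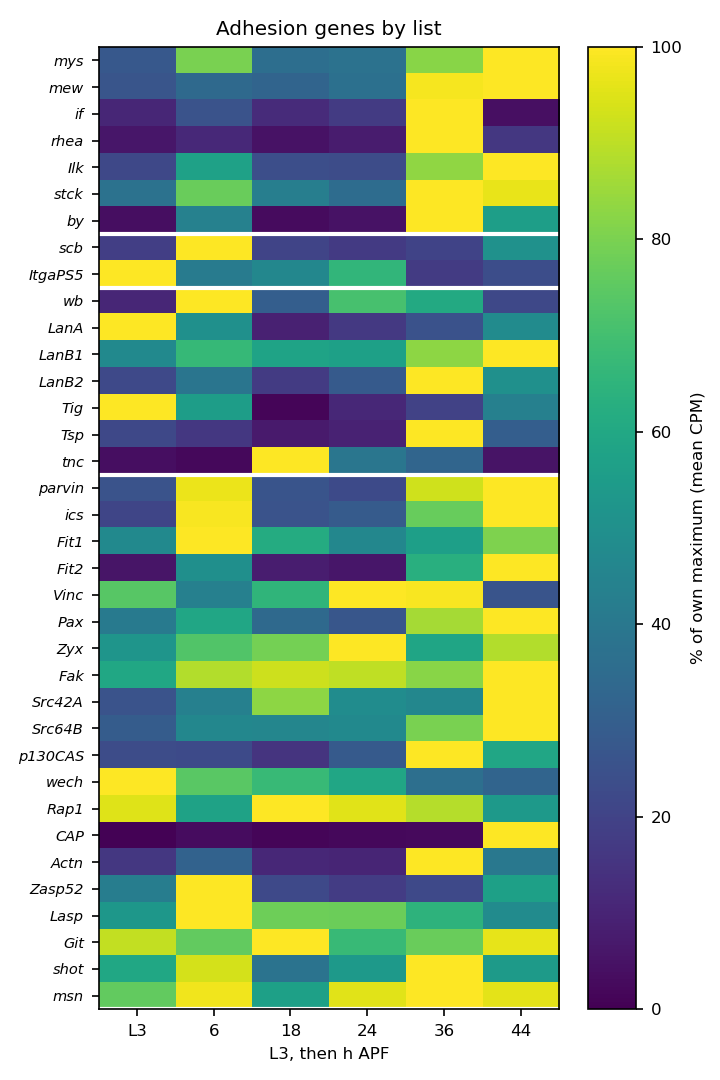
Mean CPM of each tested gene as a percentage of its own highest timepoint (colour), with genes in rows by list and timepoints in columns. The 7 genes at the top are bright at 36 h APF, *if* is dark at 44 h, and *tnc* among the ligands is brightest at 18 h.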

How the data were processed

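RNA from whole wings at 6 timepoints, with 2 libraries each, was measured by mRNA sequencing. The authors aligned reads to dm3 with TopHat2 2.1.0 and counted them on genes with HTSeq 0.6.1 (SAMtools 1.2 is also listed), and the deposited counts are raw reads per gene. Whether reads were counted by strand is not given in the sources used here. Records not assigned to a gene (44.0 to 75.2% of a library) were left out of library sizes. RPKM values that the authors deposited, calculated in edgeR, were used as an alternative with limma on log2(RPKM + 0.5), so fold changes there are on that scale. A further 2 RPKM columns match no sample and were not used. Each RPKM value implies a gene length, which was constant across libraries once records not assigned to a gene were counted in library sizes. RPKM thus rests on other library sizes than CPM. The implied length was within 0.8 to 1.25 times the annotated exon length for 1456 of 9817 genes (14.8%). RPKM was therefore compared between libraries of a gene and never between genes. Levels and ratios between genes used exon lengths of BDGP6 instead of the implied lengths planned for them.

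Counts were analysed with R 4.3.3 and edgeR 4.0.16. Of 15240 genes, 8469 with a log2 CPM above 2 (prior count 2) in at least 1 library were tested in one quasi-likelihood fit of 12 libraries with TMM factors (0.70 to 1.37), a coefficient per timepoint and Benjamini-Hochberg adjustment. All 15 pairs of timepoints were fitted, and a gene passed the test with an adjusted p under 0.05 and a 2-fold change. Standard errors were the log2 fold change over the root of F. The fit was tested on simulated data. Ratios used an exact permutation test over the 10395 ways to pair 12 libraries, whose smallest p is 9.62e-05. CPM floors cover counting error only. Nothing beyond the word independent says where the replicates came from, so p-values measure the spread between these libraries. Alternatives were RLE factors, library size alone, other filters, DESeq2 1.42.0, limma 3.58.1 on RPKM, a replicate block, the 4 libraries of a comparison alone and leaving out each library. The implied lengths for ratios were an alternative added after seeing the data. All 7 genes, the other integrin subunits, list genes past the test (the 3 largest each way where more than 5) and the 3 genes most alike by Pearson r are named, except 1 that is not reported here. Genes and lists were chosen with earlier results of these data known. No sequences or coordinates are printed, since the annotation used is of another build than dm3. The 43 list genes were all matched in it.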

Additional observations from a re-analysis of the deposited data

How the results depend on the processing

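The number of the 7 genes past the test was the same with RLE factors, with DESeq2, with no filter and with a filter at a log2 CPM of 4. With library size alone it was 1 at 6 h over L3, 1 at 18 h against 6 h, 1 at 24 h against 6 h (4 with TMM) and 4 at 44 h against L3 (7 with TMM), and in the deposited RPKM values it was 2, 1 and 1 in the first 3 of these, 3 at 36 h over 18 h and 3 at 36 h over 24 h (7 each with TMM). In RPKM values 4 of the 35 neighbours in the order of levels differed (10 in the counts). The median log2 fold change of all genes was −0.87 to 0.51 with library size alone and −1.01 to 0.59 in RPKM values.

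Leaving out each library in turn gave 3 to 6 genes at 6 h over L3, 2 to 5 at 18 h against 6 h, 0 at 24 h against 18 h, 7 at 36 h over 24 h, 2 at 44 h against 36 h, 3 to 5 at 24 h against 6 h, 6 to 7 at 36 h over 18 h, 7 at 44 h against L3, 8 to 11 neighbours that differed and 7 genes that varied over the series. Over the 5 steps the calls were 3 to 4 for the other subunits, 12 to 16 for ligands, 22 to 26 for cytoplasmic genes and 9 to 12 for basement membrane genes. The span of the log2 ratios was 4.29 to 4.91 for *if* over *mew*, 1.58 to 1.79 for *mew* and *if* over *mys* and 0.74 to 0.98 for *stck* over *Ilk*.

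Of 1120 alternative values for 56 single-gene changes, 1043 kept direction and side of the threshold, 50 lost the call, 3 gained one and 24 turned direction. With library size alone the log2 fold change of *mew* was −0.20 at 6 h over L3, 0.43 at 18 h against 6 h and −0.32 at 44 h against 36 h, that of *mys* −0.00037 at 24 h against 18 h and −0.055 at 44 h against 36 h, and that of *Ilk* −0.074 at 44 h against 36 h. In RPKM values *mew* had −0.046 at 6 h over L3, 0.64 at 18 h against 6 h and −0.19 at 24 h against 18 h, *mys* −0.31 at 24 h against 18 h and −0.022 at 36 h over 18 h, and *stck* 0.27 at 44 h against 36 h. With the 4 libraries of the comparison alone *mew* had −0.022 at 44 h against 36 h. With a library left out, ranges that crossed 0 were −0.12 to 0.15 for *mew* and −0.12 to 0.033 for *stck* at 44 h against 36 h, −0.22 to 0.066 for *mew* at 18 h against 6 h, −0.032 to 0.29 for *mew* and −0.99 to 0.0042 for *if* at 24 h against 6 h, and −0.15 to 0.33 for *mys* and −0.13 to 0.0032 for *Ilk* at 24 h against 18 h. Of these, *mys* at 36 h over 18 h in RPKM values was the one change that had passed the test with TMM. There the median over all genes was −1.01, and relative to it the change of *mys* was 0.99. With the median of all genes subtracted, 0 of the 37 changes past the test with TMM turned with library size alone or RPKM. Some changes short of the test still turned, such as *mew* at 44 h against 36 h with library size alone (−0.053 relative to the median). The cause of these turns in direction was not tested.

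Samples of the 6 timepoints share replicate numbers. Deviations from the timepoint means had correlations of −0.161 to 0.199 between same-numbered libraries. With so few libraries per timepoint, these values cannot decide whether the numbers mark pairs. With a replicate block the counts were again 5, 5, 0, 7 and 2 over the 5 steps, 4 at 24 h against 6 h and 7 in each of the wider comparisons, and over all genes 2798 passed at 6 h over L3 (2779 without it). A floor of 1.53 CPM in the shallowest library limits what can be said of *alphaPS4*, *alphaPS5* and *betaInt-nu*.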

Other observations

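The basement membrane lies between the wing surfaces, and its 5 genes were counted beside the adhesion genes. At 6 h over L3 3 rose (18.1% of all genes): *Cg25C* and *vkg*, the collagen IV chains, by 2.19-fold and 2.05-fold, and *Ndg* (nidogen), with 11 and 14 counts at 6 h, against 0 in both L3 libraries. At 18 h against 6 h 3 fell, *Cg25C* 34.8-fold, *vkg* 34.5-fold and *trol* (perlecan) 11.0-fold (edgeR's quasi-likelihood test, adjusted p between 2.49e-07 and 2.38e-05), where 17.8% of all genes fell. At 24 h against 18 h *BM-40-SPARC* rose 2.00-fold and *Cg25C* 2.24-fold, where 8.81% of all genes passed the test in either direction. At 36 h over 24 h 4 of the 5 rose (15.3% of all genes), *Ndg* 7.77-fold, *vkg* 6.73-fold, *BM-40-SPARC* 5.90-fold and *Cg25C* 5.52-fold, and at 44 h against 36 h none passed the test with edgeR (3 had an unadjusted p under 0.05). Hemocytes and fat body are known sources of collagen IV, and the summed level of 7 hemocyte markers was 39.5 to 49.6 CPM at 18 h, against 110.2 to 122 CPM at 6 h. *crq* was the largest part of that sum (means of 33.9 CPM at 18 h and 72.5 CPM at 6 h). *Hml*, *eater* and *He* had means of 4.17 CPM or less at both timepoints. The part of hemocytes and fat body in these values was not tested.

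The gene lengths implied by counts and deposited RPKM values were 107 bases for *mys* and 4482 bases for *stck*, where the exons of BDGP6 sum to 4482 bases for *mys* and 1583 bases for *stck*. Across 9817 genes the implied and the annotated lengths had a Spearman correlation of 0.0141, a description across genes. A level of *mys* read from the deposited RPKM values is therefore far higher than one from counts and annotated exons, while its course over the timepoints is not touched by the length.

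With library size alone in place of TMM factors, 12 of the 21 genes named as most like one of the 7 were still among its 3 nearest. None of the 3 named for *mew* was.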
